A study of Mus musculus with 4 samples.

Results

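Kit-positive bone marrow progenitors from untreated and imatinib-treated mice with chronic myeloid leukaemia (CML) were compared at equal depth per cell. The cells come from 2 of 4 single-cell libraries. Each held bone marrow cells of C57BL/6 mice that had been sorted as lineage negative, Sca1 positive and cKit positive (LSK), and each was made with inDrop, a droplet method that tags every captured transcript with a unique molecular identifier (UMI). The other pair of libraries, from wild-type mice, was not analysed here. In the untreated CML group the mice received no drug. In the imatinib CML group they received 400 mg/kg of imatinib by gavage on alternate days, for 30 days according to the treatment protocol and for 4 weeks according to another label. How the leukaemia was induced, the age and sex of the mice, and the number of mice pooled in a library are not given in the sources used here. Members are cells with at least 1000 UMIs, a mitochondrially encoded share of at most 20% and at least 1 UMI of Kit. Each was then thinned at random to 1000 UMIs, so that every cell weighs the same. Of 18822 cells deposited in the series, 1792 met the rule: 1228 in the untreated and 564 in the imatinib library. There was 1 library on each side, so no test was possible, every difference is a difference between these libraries, and all intervals are exact 95% intervals that cover counting error only.

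CML is driven by the fusion kinase BCR-ABL, which keeps cytokine-type signalling through the RAS, STAT5 and PI3K pathways switched on. Imatinib blocks the ABL kinases and also KIT, the receptor for stem cell factor that gives the sort gate its name. Kit is carried by stem cells, by the multipotent and granulocyte-monocyte progenitors that follow, and by mast cells, and it is lost as granulocytes mature. A progenitor entering the neutrophil path first makes the enzymes of the primary granules, then, under C/EBP epsilon, the proteins of the secondary granules.

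Kit itself (chr5:75574916-75656722, plus strand, GRCm38) chose the cells and is described only. In the untreated library all 3032 cells passed the depth and mitochondrial limits, and 1228 of them had a Kit UMI, a share of 40.5% (38.7 to 42.3). In the imatinib library 7132 cells were deposited, 3080 passed these limits and 564 had a Kit UMI, a share of 18.3% (17.0 to 19.7). The share depends on depth: the Kit-positive cells had a median of 6975 UMIs in the untreated library, with a range of 1008 to 37367, and of 2203.5 in the imatinib library, with a range of 1005 to 70640. Just inside the rule, the cells with exactly 1 Kit UMI numbered 538 untreated and 298 with imatinib, with median depths of 5375.5 and 2006.5 UMIs. Just outside it, 1804 and 2516 cells had no Kit UMI, with median depths of 4070 and 1720. After thinning, 410 of the untreated cells (33.4%) and 330 of the imatinib cells (58.5%) still held a Kit UMI, and the summed level was 419 counts per 1000000 UMIs (CPM) against 839. Both the rule and the unequal depth set these values, so nothing is read from them.

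The libraries differ in more than the drug. Xist, the RNA of the inactive X chromosome, was at 2577 CPM untreated and 24.8 CPM with imatinib, while the Y-linked Ddx3y was at 0 CPM untreated and 56.7 CPM with imatinib, Eif2s3y at 8.14 CPM untreated and 40.8 CPM with imatinib, Kdm5d at 5.70 CPM untreated and 24.8 CPM with imatinib and Uty at 2.44 CPM untreated and 24.8 CPM with imatinib. Drug, mice and library preparation therefore cannot be told apart in any value below. The libraries share 175 distinct cell names, of 3005 in the untreated and 6789 in the imatinib library. Ly6a, which encodes Sca1, had a UMI in 6.43% of thinned untreated and 3.19% of thinned imatinib cells, at 76.5 and 33.7 CPM. Members written as T cell or B cell markers did not reach the floor for a measured gene in either library: 0 of 11 and 0 of 10 were measured.

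In all, 4223 genes were measured, meaning at least 50 CPM and 30 UMIs in the library where they were higher. Of these, 413 (9.78%) were higher by 2-fold or more with imatinib and 487 (11.5%) were lower by as much, together 21.3%, and 78.7% lay within 2-fold. Their median log2 ratio, imatinib over untreated, was -0.10. The counting interval lay wholly past 2-fold for 190 of the higher and 144 of the lower genes. Scaling by the trimmed mean of M values (TMM) in place of total UMIs lowered every log2 ratio by 0.12 and gave 341 higher and 602 lower genes, so the higher genes made up 36.2% of those past 2-fold in place of 45.9%. These shares are the background for each list below. A gene that did not pass the floor in both libraries has its direction fixed by the floor. A sum over cells cannot tell fewer cells of a type from less RNA per cell, so shares of cells are given for the main genes.

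**Figure D1:**
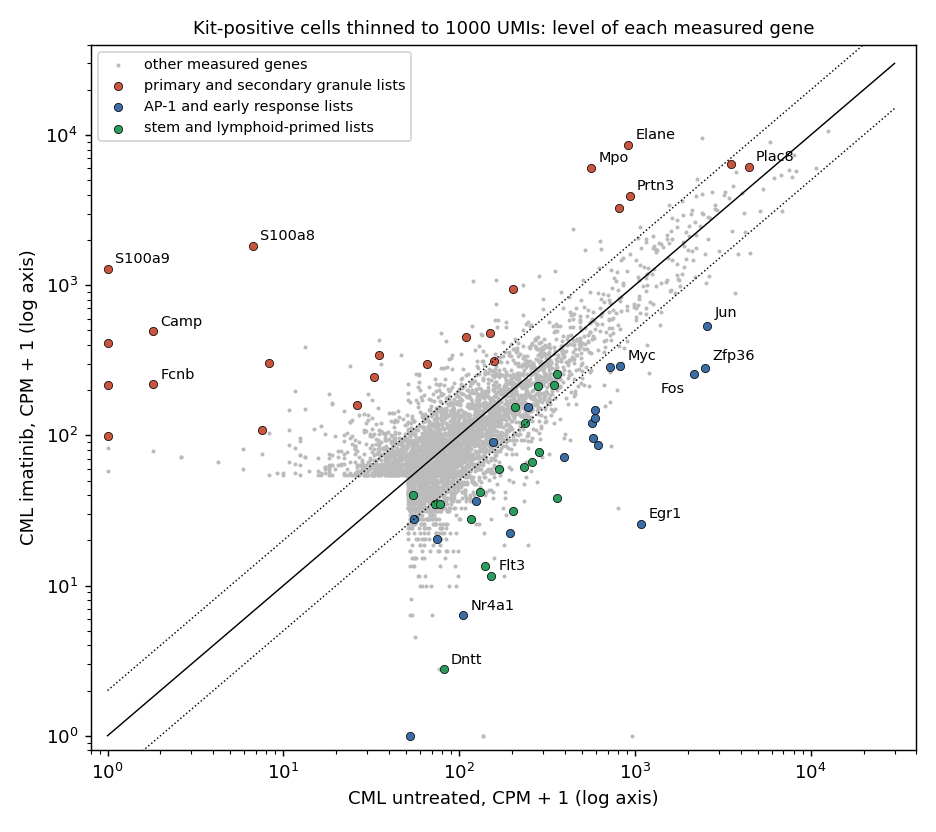
Level of each measured gene in the Kit-positive cells of the untreated library (horizontal) and of the imatinib library (vertical), as CPM plus 1 on log axes, with the 2-fold lines and named genes; Xist is left out. Granule genes such as Mpo, Elane, S100a8 and Camp lie far above the diagonal, and Egr1, Fos, Zfp36, Flt3 and Igkc lie below it.

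The genes of the primary granules, the enzyme stores that granulocyte progenitors fill first, were much higher in the imatinib library. All 12 written members were measured, 10 were at least 2-fold higher and none was lower, with a median log2 ratio of 2.06. Cst7 and Hp passed the floor in the imatinib library only. Mpo (chr11:87793581-87804413, plus strand), the myeloperoxidase of the primary granule, stood at 565 CPM (524 to 609) in the untreated and 6073 CPM (5871 to 6279.6) in the imatinib library, which is 10.7-fold higher (9.90 to 11.7). Elane, neutrophil elastase, was at 914 CPM (862 to 969.6) in the untreated and 8644 CPM (8403 to 8889.7) in the imatinib library, a log2 ratio of 3.24 (3.15 to 3.34). The intervals of both genes were far apart between the libraries. Prtn3, proteinase 3, was at 934 CPM untreated and 3938 CPM with imatinib, a log2 ratio of 2.08. Ctsg, cathepsin G, was at 811 CPM untreated and 3269.5 CPM with imatinib, a log2 ratio of 2.01. Elane, Prtn3 and Ctsg are serine proteases packed together in the primary granule, and the ratio of Elane was the widest of them. Ms4a3, a membrane protein of granulocyte-monocyte progenitors, was at 203 CPM untreated and 949 CPM with imatinib. Cst7, the protease inhibitor cystatin F, was at 31.8 CPM untreated and 243 CPM with imatinib, and Hp, haptoglobin, at 25.2 CPM untreated and 158 CPM with imatinib. Only Srgn, the proteoglycan core that binds granule proteases, and Plac8, a small myeloid protein, were within 2-fold, at 3525 and 6433 CPM and at 4435 and 6147 CPM, and both were already high without the drug.

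The promoters of 4 members, Mpo, Elane, Prtn3 and Ctsg, hold a short match to GAGGAAG, a core that the myeloid factor PU.1 can bind, and they are shown for that reason. RefSeq promoters of 250 bases before to 50 after the start were found for 9 of the 12 members, and 4 of these held the letters on either strand in the bases before the start, against 10.61% of 32851 promoters in all. The same letters were in 7 of 18 secondary granule members with a promoter, so they are not particular to this list. The windows of 30 bases below are on the strand of the gene, from GRCm38.p6, with the matched letters in capitals: Mpo at chr11:87793549-87793578 (plus strand), Elane at chr10:79886216-79886245 (plus strand), Prtn3 at chr10:79879561-79879590 (plus strand) and Ctsg at chr14:56102772-56102801 (minus strand).
Mpo: gtggagagagaGAGGAAGttgcctttgtcc
Elane: cgtgtcccaggGAGGAAGtagggctgtggc
Prtn3: caaactggaagGAGGAAGtgggacccacag
Ctsg: tcccagaaggaGAGGAAGaaaaggaagtag
The match shown begins 224 bases before the RefSeq start in Mpo, 85 in Elane, 95 in Prtn3 and 216 in Ctsg. Mpo holds a further match that begins 247 bases before the start. A match describes letters and says nothing of binding in these cells.

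The secondary granule and cytoplasmic proteins of maturing neutrophils were close to 0 in the untreated Kit-positive cells and present in the imatinib library. Of 20 written members, 11 were measured. All of these but Anxa1, the anti-inflammatory annexin A1 (64.3 CPM untreated and 296 CPM with imatinib), passed the floor through the imatinib library alone, which fixes their direction. Summed over the list, the level was 159 CPM untreated and 5754 CPM with imatinib. S100a8, a subunit of calprotectin, was at 5.70 CPM (2.29 to 11.7) in the untreated and 1837 CPM (1727 to 1952) in the imatinib library, which is 322-fold higher (156 to 803). Its partner S100a9 had 0 UMIs untreated and 727 with imatinib, or 1289 CPM, at least 528-fold higher. Camp, the cathelicidin precursor, had 1 UMI against 278, a ratio of 605 whose interval runs from 108 to 23993. The untreated counts behind these genes are so low that the ratios are known only within wide limits. Fcnb, ficolin B, had 1 UMI against 123, 268-fold higher (47.2 to 10663). Ngp, a neutrophil granule protein, and Chil3, a chitinase-like protein, had 0 UMIs untreated. Ngp was at least 169-fold higher, and Chil3 was at least 87.8-fold higher. Ltf, lactoferrin, was at 0 against 97.5 CPM, at least 39.9-fold higher. Lcn2, the siderophore binder lipocalin 2, was at 34.2 CPM untreated and 344 CPM with imatinib. Pglyrp1, which recognises bacterial peptidoglycan, was at 6.51 CPM untreated and 108 CPM with imatinib, and Wfdc21 at 7.33 CPM untreated and 301 CPM with imatinib. Markers of late neutrophils did not reach the floor: Ly6g was at 10.6 and 40.8 CPM, and Cxcr2, the chemokine receptor of mature neutrophils, was at 20.4 and 3.55 CPM.

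In this list the letters TTNNGNAA, a core of C/EBP sites, were found on either strand in the bases before the start of 15 of 18 members with a RefSeq promoter, against 36.85% of all promoters and 4 of 9 primary granule members. Windows are shown for 3 of the genes with the widest ratios: S100a9 at chr3:90695833-90695862 (minus strand), Fcnb at chr2:28084983-28085012 (minus strand) and Ngp at chr9:110419659-110419688 (plus strand). They are on the strand of the gene, and in S100a9 and Ngp the capitals are the motif read from the opposite strand.
S100a9: agggctgggaaTTTCACAAaacatcagagc
Fcnb: ttttaggtctcTTGTGCAAccagaggcctc
Ngp: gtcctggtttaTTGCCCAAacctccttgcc
The match begins 130 bases before the start in S100a9, 123 in Fcnb and 138 in Ngp. As above, this is a description of letters.

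Primary and secondary granule genes were spread over the cells in different ways. The 6 markers of granulocyte-monocyte progenitors (Mpo, Elane, Prtn3, Ctsg, Ms4a3 and Cst7) gave a median of 1 UMI per untreated cell, with quartiles of 0 and 4 and a highest of 44. With imatinib the median was 22, with quartiles of 13 and 34 and a highest of 61. Most cells of the imatinib library thus carried them, while most untreated cells held few or none. Mpo had a UMI in 26.7% of thinned untreated cells (50.2% before thinning) and in 87.9% of imatinib cells (91.1% before). Elane had one in 21.3% (32.5% before thinning) and in 87.2% (91.7% before). Secondary granule UMIs were instead concentrated: the median was 0 per untreated and 1 per imatinib cell, 59 imatinib cells and 0 untreated cells held at least 10, and the 10% of imatinib cells richest in them held 73.4%. S100a8 had a UMI in 0.407% of untreated cells (1.95% before thinning) and in 31.2% of imatinib cells (41.0% before). Camp was narrower still, with 88.1% of its imatinib UMIs in 10 cells. Cells with at least 5 UMIs of the neutrophil-defining markers numbered 0 of 1228 untreated (at most 0.300%) and 95 of 564 with imatinib (16.8%).

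**Figure D2:**
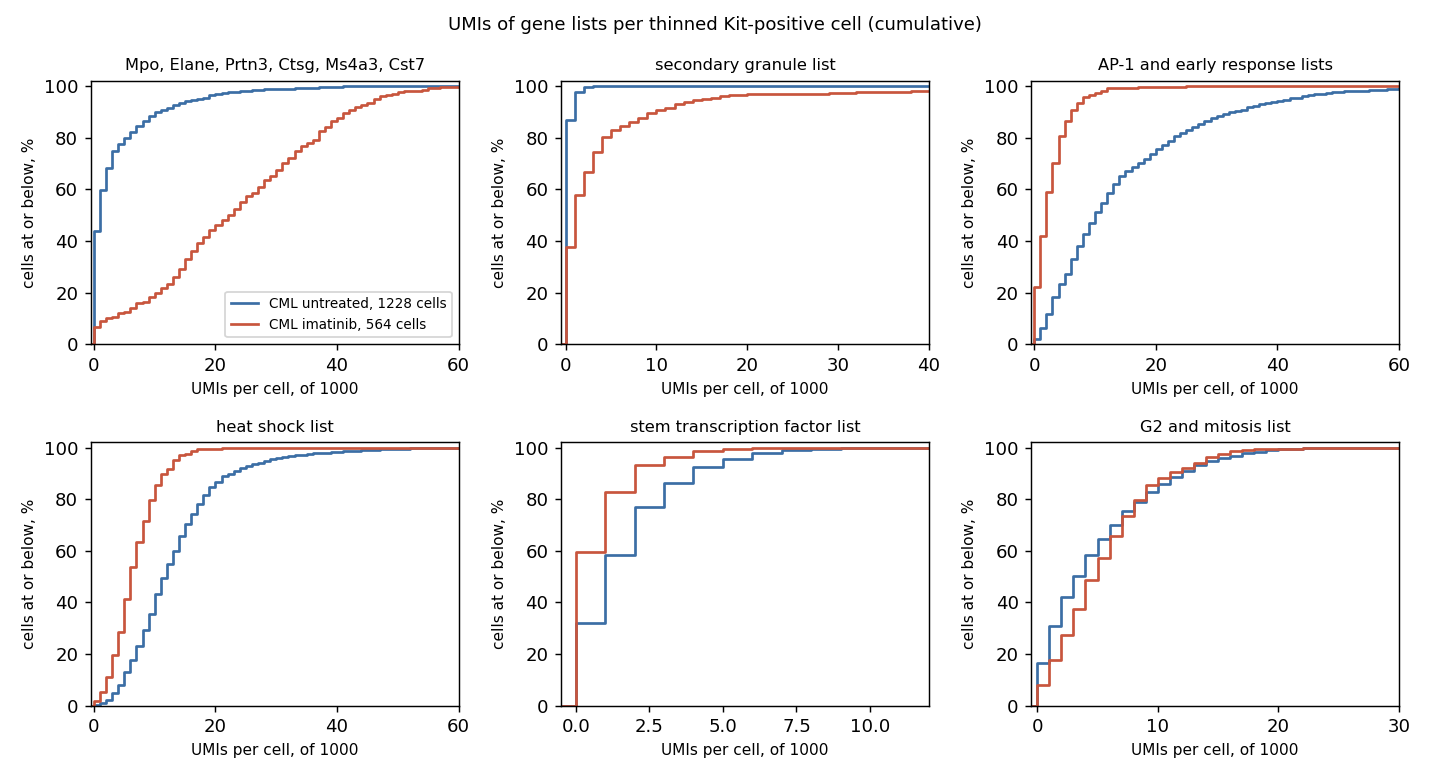
Cumulative share of Kit-positive cells (vertical, percent) with up to a given number of UMIs per 1000 (horizontal) in each library, for 6 gene lists. The imatinib curve lies to the right for the 6 granulocyte-monocyte progenitor markers (median 22 against 1) and to the left for the immediate-early genes (median 2 against 10).

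RNA that leaks from other cells gives UMIs in droplets of cells that do not make it, so the same shares were taken in cells chosen by erythroid markers, at least 3 of 1000 UMIs, in a thinning of all cells of each library. The imatinib library held 214 such cells with a median depth of 3358.5 UMIs. Of these, 18.2% had a UMI of Mpo, 20.6% of Elane and 10.7% of S100a8, against 88.3%, 87.6% and 32.1% of its Kit-positive cells in the same draw. In the untreated library 380 erythroid-marker cells with a median depth of 4866 UMIs had Mpo in 5.26% and Elane in 4.47%, against 27.4% and 21.6% of its Kit-positive cells. For Mpo and Elane the Kit-positive shares lay above this erythroid-marker background in both libraries, as did S100a8 in the imatinib library. The background itself was higher with imatinib for Mpo, Elane and S100a8. It does not come from like cells, as Hbb-bs, a haemoglobin gene, was in 1.05% of untreated and 33.2% of imatinib erythroid-marker cells. Untreated, S100a8 was in 0.263% of erythroid-marker and 0.570% of Kit-positive cells, against 10.7% and 32.1% with imatinib. Camp and Ngp did not clearly exceed the background of the imatinib library. Camp had a UMI in 4.21% (1.94 to 7.83) of the imatinib erythroid-marker cells and 6.74% (4.81 to 9.13) of the Kit-positive cells, and Ngp in 3.27% (1.33 to 6.62) and 5.85% (4.06 to 8.12). The high granule levels were not particular to Kit-positive cells: among the Kit-negative cells of the imatinib library 85.3% had Mpo and 34.6% had S100a8, and in the untreated library 22.8% had Mpo.

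Transcription factors of the myeloid line were mixed. Past 2-fold, 5 of 13 measured members were on the higher and 3 on the lower side, and the list's median log2 ratio was 0.41. Of the 13, 3 passed the floor in the imatinib library only, among them Cebpa and Cebpe, and 1 in the untreated library only. The floor fixes the direction of these genes, and the whole list summed to 1771 CPM untreated and 2053 CPM with imatinib. Cebpe, which drives secondary granule genes, had 2 UMIs untreated and 40 with imatinib, a log2 ratio of 5.44 (3.50 to 8.54). Cebpa, needed to form granulocyte-monocyte progenitors, was at 39.9 CPM untreated and 99.3 CPM with imatinib, and Spi1, which encodes PU.1, at 103 CPM untreated and 241 CPM with imatinib. Gfi1, a repressor that favours the neutrophil fate, had a log2 ratio of 1.21 (0.85 to 1.58), and Irf8, which favours monocytes and dendritic cells, one of 1.42 (0.95 to 1.90). Factors of earlier or broader blood progenitors went the other way: Runx1 was at 147 CPM untreated and 56.7 CPM with imatinib and Fli1 at 192 CPM untreated and 60.3 CPM with imatinib. Myb, a factor of immature progenitors, was within 2-fold at 446 and 594 CPM.

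Genes of stem and multipotent cells were lower in the imatinib library. Of 15 written stem cell factors 7 were measured, of which 4 were at least 2-fold lower and none higher, with a median log2 ratio of -1.68. As 4 of the 7 passed the floor in the untreated library only, which fixes their direction, the sum over the 15 is also given, 1621 CPM untreated and 707 CPM with imatinib. Hlf, which marks stem cells, was at 116 CPM (98.1 to 137) in the untreated and 26.6 CPM (14.9 to 43.9) in the imatinib library, a log2 ratio of -2.13 (-3.01 to -1.36). In the same direction were Meis1, a HOX partner, at 130.3 CPM untreated and 40.8 CPM with imatinib, and Msi2, an RNA-binding protein of stem cells and leukaemia, at 234 CPM untreated and 60.3 CPM with imatinib. Gata2 and Lmo2, which act in stem cells and also in mast and erythroid progenitors, were within 2-fold, with log2 ratios of -0.45 and -0.40. Of 13 surface and quiescence genes 4 were measured and 3 were lower, with 2 of the 4 past the floor in the untreated library only. Angpt1, the TIE2 ligand, was at 138 CPM untreated and 12.4 CPM with imatinib, Txnip, a thioredoxin inhibitor, at 285 CPM untreated and 76.2 CPM with imatinib, and Ly6a had a log2 ratio of -1.18 (-1.98 to -0.46). Cd34 was within 2-fold, at 348 and 215 CPM. Most cells held few such UMIs: the stem factor list had a median of 1 UMI per untreated and 0 per imatinib cell. Among cells with at least 10 primary granule UMIs (539 untreated and 518 with imatinib) the list's median log2 ratio was -0.94. In 4 of 5 narrower bands of granule content its summed level was higher with imatinib. Some of these bands held few cells and no interval was taken, so the direction within them is not settled.

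Lymphoid priming was also lower. Of 14 written genes 8 were measured, 6 were at least 2-fold lower and none was higher, with a median log2 ratio of -1.74. Here 4 of the 8 passed the floor in the untreated library only, and the whole list summed to 1616 CPM untreated and 635 CPM with imatinib. Flt3 (chr5:147330741-147400489, minus strand), the receptor tyrosine kinase of multipotent and lymphoid-primed progenitors, was at 151 CPM (129.7 to 174) in the untreated and 10.6 CPM (3.90 to 23.2) in the imatinib library, which is 14.2-fold lower (6.38 to 39.1). It had a UMI in 137 untreated cells (11.2%, and 32.9% before thinning) and in 6 imatinib cells (1.06%, and 2.30% before). Dntt, the terminal transferase of early lymphoid cells, had 99 UMIs untreated and 1 with imatinib, a log2 ratio of -5.51 (-10.82 to -3.00). Ighm, whose germline transcripts appear in lymphoid-primed cells, was at 203 CPM untreated and 30.1 CPM with imatinib, and Mef2c, a factor of the lymphoid and megakaryocyte lines, at 257 CPM untreated and 65.6 CPM with imatinib. Satb1, a chromatin organiser of lymphoid progenitors, had a log2 ratio of -1.51. Ikzf1, encoding IKAROS, was within 2-fold, at -0.97. Between cells of 1000 to 3000 UMIs (191 untreated and 388 with imatinib) the list's median was -0.86.

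Megakaryocyte and erythroid genes gave small lists. Of 12 megakaryocyte genes 4 were measured and 3 were lower, but the 4 passed the floor in the untreated library only, and the whole list summed to 493 CPM untreated and 177 CPM with imatinib. F2r, the thrombin receptor, was at 151 CPM untreated and 26.6 CPM with imatinib, with Selp, P-selectin, at -2.00 and Itga2b, integrin alpha IIb, at -1.53 on the log2 scale. Of 15 erythroid genes other than haemoglobins 5 were measured. Gata1, the erythroid and megakaryocyte factor, was at 70.0 CPM untreated and 24.8 CPM with imatinib and Car2, carbonic anhydrase 2, at 662 CPM untreated and 216 CPM with imatinib. Without thinning, where deep cells weigh more, both were higher with imatinib, with log2 ratios of 0.44 for Gata1 and 0.60 for Car2. Tfrc, the transferrin receptor, was higher, at 44.8 CPM untreated and 103 CPM with imatinib. Tfrc passed the floor in the imatinib library only and Gata1 in the untreated library only. The whole erythroid list summed to 1191 CPM untreated and 741 CPM with imatinib. Alas1, which starts haem synthesis outside the erythroid line, was at 22.8 CPM (15.2 to 33.0) in the untreated and 287 CPM (245 to 335) in the imatinib library, 12.6-fold higher (8.40 to 19.5), while Cpox and Fech, later enzymes of the same path, were within 2-fold at log2 ratios of -0.31 and 0.12. Alas1 passed the floor in the imatinib library only and Cpox in the untreated library only.

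Mast cell and basophil genes, from lines that keep Kit or arise beside it, were higher in few cells. Of 13 written genes 10 were measured and 5 were higher by 2-fold or more, none lower by as much. The median log2 ratio was 1.20, and the summed level was 2001 against 5193 CPM. Cpa3, carboxypeptidase A3, was at 636 CPM untreated and 1977 CPM with imatinib, and Cma1, the chymase of mast cells, at 519 CPM untreated and 1725 CPM with imatinib. Cma1 UMIs lay in 21 untreated and 48 imatinib cells, and 10 cells held 93.6% and 76.7% of them. The basophil protease Mcpt8 was at 22.0 CPM untreated and 103 CPM with imatinib, and Prss34, another basophil protease, had 0 UMIs untreated against 46 with imatinib, at least 33.4-fold higher. Mcpt8 and Prss34 passed the floor in the imatinib library only, which fixes their direction. Hdc, which makes histamine, had a log2 ratio of 2.11 (1.69 to 2.54). Tpsb2, a mast cell tryptase, and Gzmb, granzyme B, were within 2-fold at 0.70 and 0.01. The 10% of cells richest in them held 96.3% of the list's UMIs untreated and 93.3% with imatinib. Without cells holding at least 5 of these UMIs (1201 untreated and 524 with imatinib left), 395 genes in all were at least 2-fold higher and 504 lower, close to the counts with them.

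Monocyte genes summed to 349 CPM untreated and 980.5 CPM with imatinib over the 12 written. Of these, 6 were measured and 4 were at least 2-fold higher, but those 4 passed the floor in the imatinib library only, which fixes their direction. Ly6c2, a surface protein of monocytes and of granulocyte progenitors, was at 12.2 CPM untreated and 385 CPM with imatinib. F13a1, coagulation factor XIII A of monocytes, was at 29.3 CPM untreated and 135 CPM with imatinib, with Fn1, fibronectin, at 3.07 and Mpeg1, perforin 2 of phagocytes, at 2.24 on the log2 scale. Ccr2, the monocyte chemokine receptor, and Ms4a6c did not pass 2-fold, at -0.04 and 0.22.

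**Figure D3:**
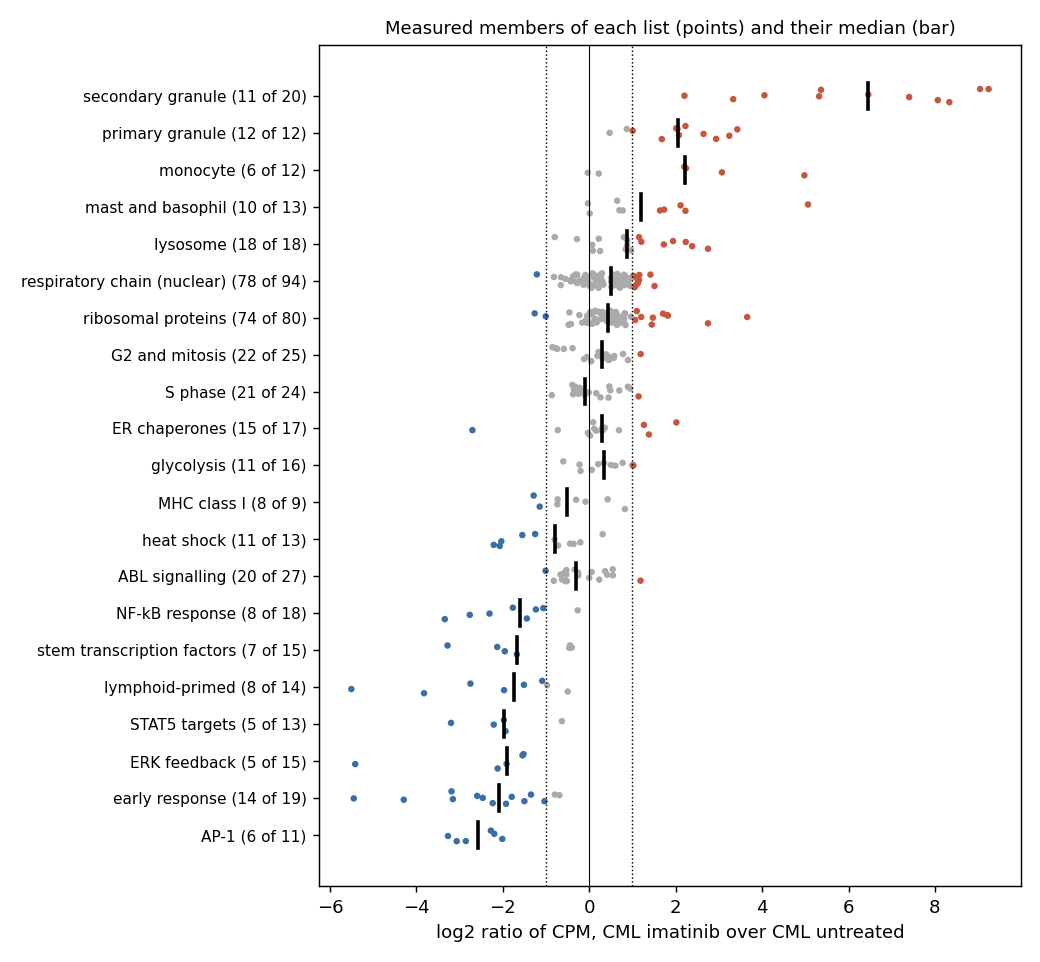
Log2 ratio (imatinib over untreated, horizontal) of the measured members of each list (points) with the list's median (bar) and the 2-fold lines. Granule and monocyte lists lie to the right, with a median of 2.06 for primary granules, and the immediate-early, stem and lymphoid lists lie to the left.

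Immediate-early genes, the fast transcriptional response to growth factor and stress signals, were lower in the imatinib library. Of 11 written AP-1 genes 6 were measured and all 6 measured were at least 2-fold lower with imatinib, with a median log2 ratio of -2.57, and the list's summed level was 6682 CPM untreated and 1207 CPM with imatinib. Only Atf3 passed the floor in the untreated library alone. Fos (chr12:85473890-85477273, plus strand) was at 2156 CPM (2075 to 2240.1) in the untreated and 257 CPM (217 to 303) in the imatinib library, which is 8.39-fold lower (7.09 to 9.98). Jun, its AP-1 partner, was at 2587 CPM (2498 to 2679) in the untreated and 534 CPM (475 to 598) in the imatinib library, a log2 ratio of -2.28 (-2.45 to -2.11). Junb and Jund, relatives of Jun, had log2 ratios of -2.20 and -2.86, and Fosb one of -2.01. Atf3, a stress-induced partner, was at 51.3 and 0 CPM, at least 9.64-fold lower. The AP-1 genes were detected in many untreated cells: Fos had a UMI in 57.5% of untreated (81.6% before thinning) and 17.2% of imatinib cells (29.1% before), and Jun in 70.4% (91.3% before) and 31.0% (44.0% before).

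Other early response genes were lower as well. Of 19 written 14 were measured and 12 were at least 2-fold lower, none higher, with a median log2 ratio of -2.08, and 6 of the 14 passed the floor in the untreated library only. The whole list summed to 7678 CPM untreated and 1530 CPM with imatinib. Egr1, a zinc finger factor induced through ERK, was at 1085 CPM (1027 to 1145) in the untreated and 24.8 CPM (13.6 to 41.6) in the imatinib library, which is 43.7-fold lower (26.0 to 80.1), and had a UMI in 527 untreated cells (42.9%, and 69.5% before thinning) and 12 imatinib cells (2.13%, and 4.96% before). Zfp36, which destabilises cytokine mRNAs, was at 2514 CPM (2426 to 2604) in the untreated and 282 CPM (239.8 to 329) in the imatinib library, 8.92-fold lower (7.60 to 10.5). Nr4a1, an orphan nuclear receptor, was at 104 and 5.32 CPM with 3 UMIs in the imatinib library, a ratio of 19.6 with an interval of 6.56 to 96.3. Ier2 and Btg2, an immediate-early nuclear protein and an antiproliferative factor, had log2 ratios of -2.24 and -2.47. Klf6, a zinc finger factor, was at 578 CPM untreated and 95.7 CPM with imatinib, Klf2, a quiescence factor, at 194 CPM untreated and 21.3 CPM with imatinib, and Myc at 823 CPM untreated and 291 CPM with imatinib.

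Genes known as readouts of the pathways downstream of BCR-ABL and KIT were lower too. Over 15 written ERK feedback genes the summed level was 1537 CPM untreated and 420.2 CPM with imatinib. Of these, 5 were measured and those 5 were at least 2-fold lower, but 3 of them, Dusp5, Dusp6 and Spred1, passed the floor in the untreated library only, which fixes their direction. Dusp6, the phosphatase that removes the activating phosphates of ERK, was at 100.2 CPM untreated and 26.6 CPM with imatinib, and Dusp1, a broader MAP kinase phosphatase, at 678 CPM untreated and 156 CPM with imatinib. Dusp5, an ERK phosphatase of the nucleus, had 93 UMIs untreated and 1 with imatinib, a log2 ratio of -5.42 (-10.74 to -2.90). Spred1, a RAS pathway inhibitor, had a log2 ratio of -1.55 (-2.47 to -0.72). Of 13 STAT5 target genes 5 were measured, 4 were lower and none was higher, with a median of -1.98; 2 of the 5 passed the floor in the untreated library only, and the whole list summed to 2655 and 817 CPM. Socs3, a JAK inhibitor, was at 97.7 CPM untreated and 10.6 CPM with imatinib, Pim1, a survival kinase, at 1198 CPM untreated and 259 CPM with imatinib, and Mcl1, an antiapoptotic protein, at 789 CPM untreated and 200.4 CPM with imatinib. Osm, oncostatin M, had a log2 ratio of -1.94 (-2.94 to -1.07), and Ccnd2, cyclin D2, was within 2-fold at -0.63 (-0.96 to -0.32). Of 18 NF-kappaB targets 8 were measured and 7 were lower, but 5 of the 8 passed the floor in the untreated library only, and the whole list summed to 1623 and 707 CPM. Tnfaip3, the feedback inhibitor A20, was at 180.0 CPM untreated and 17.7 CPM with imatinib, Nfkbia, which holds NF-kappaB in the cytoplasm, had a log2 ratio of -1.24, and Rel, a subunit, one of -2.76.

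These lower levels were also seen in Kit-negative cells and in erythroid-marker cells, the latter overlapping the Kit-positive cells. In the draw over all cells, Fos had a UMI in 59.3% of untreated Kit-positive, 59.5% of Kit-negative and 52.6% of erythroid-marker cells. In the imatinib library these shares were 17.0%, 17.4% and 4.67%. Egr1 gave 42.8%, 43.2% and 47.1% untreated and 1.77%, 2.66% and 0.467% with imatinib. The erythroid-marker cells were not alike in the libraries. Hbb-bs, a haemoglobin gene, had a UMI in 1.05% of them untreated and in 33.2% with imatinib. Their Fos and Egr1 shares therefore do not compare like cells. By the Kit-negative cells, the difference was not particular to the Kit-positive cells. Its relation to the handling of each library was not tested.

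Since the libraries differ in how many cells carry granule enzymes, the immediate-early genes were also compared among cells with like numbers of UMIs from the 6 progenitor markers. Cells with 0 to 1 such UMIs made up 59.7% of the untreated and 8.87% of the imatinib cells, and those with 20 or more made up 3.58% and 55.7%. In the lowest band (733 untreated and 50 imatinib cells) the AP-1 and early response genes summed to 17374 CPM untreated and 3100 CPM with imatinib. In the highest band (44 and 314 cells) they summed to 5818 and 2309 CPM. They were lower with imatinib in each of the 5 bands, and within the untreated library they were lower the more granule UMIs a band held. The stem cell factors did not keep their direction in these sums. They summed to 2104 CPM untreated and 1520 CPM with imatinib in the lowest band. In the other 4 bands the imatinib sum was the higher. It was 1667 CPM against 1243 CPM untreated in the next band and 490 against 341 CPM in the highest. The next band held 18 imatinib cells and the highest 44 untreated cells, and no interval was taken. The direction in these bands is therefore not settled. The lymphoid priming genes were lower with imatinib in each band, with 1746 against 440 CPM in the lowest and 659 against 580 CPM in the highest, where the gap was small. Heat shock and MHC class I genes were lower with imatinib in each band too, the latter at 12469 against 3800 CPM in the lowest and 9136 against 6283 CPM in the highest. The STAT5 targets fell from 2939 to 1080 CPM in the lowest band, but only from 1822 to 1618 CPM in the band of 5 to 9. For the NF-kappaB targets the values were 1733 against 1000 CPM and 1093 against 1088 CPM, the latter nearly equal. The lowest imatinib band also held 32760 CPM of mast and basophil genes, against 2110.5 CPM untreated. In the next band they were at 46611 CPM with imatinib and 3216 CPM untreated. So cells poor in granule enzymes are not the same mixture in the libraries. Cells of the libraries also differed in depth within each band, with medians of 6131 and 2982.5 UMIs before thinning in the lowest.

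**Figure D4:**
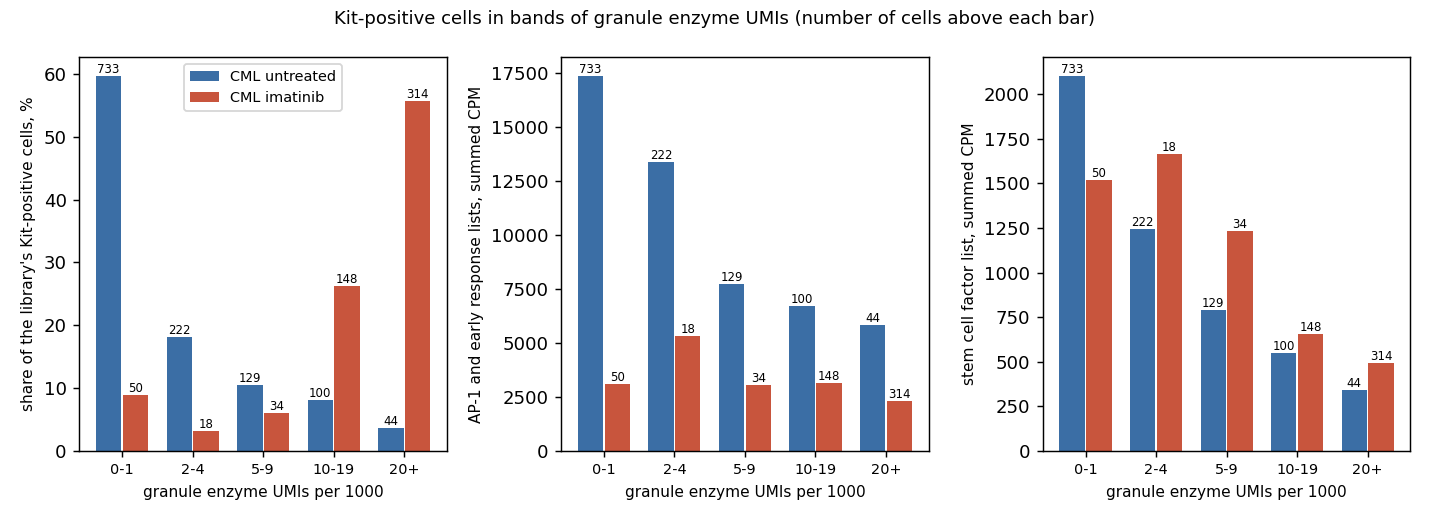
Share of cells (percent) and summed level (CPM) of the AP-1 and early response genes and of the stem cell factors, on vertical axes from 0, in cells with 0 to 1, 2 to 4, 5 to 9, 10 to 19 and 20 or more UMIs of the granulocyte-monocyte progenitor markers, by library. The immediate-early genes are lower with imatinib in each band, from 17374 against 3100 CPM in the lowest to 5818 against 2309 CPM in the highest. The summed stem cell factors are higher with imatinib in 4 of the 5. Some bands hold few cells, such as 18 imatinib cells in the band of 2 to 4, and no interval is drawn.

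Stress and antigen presentation genes were mostly lower. Of 13 written heat shock genes 11 were measured and 5 were at least 2-fold lower, with a median log2 ratio of -0.80. Hspa1b, an inducible HSP70, was at 3727 CPM (3620.0 to 3837) in the untreated and 887 CPM (811 to 968) in the imatinib library, and its near-identical copy Hspa1a, whose reads can be hard to tell from it, at 1168 CPM untreated and 399 CPM with imatinib. Dnajb1, an HSP40 cochaperone, and Hsph1, HSP110, had log2 ratios of -2.21 and -2.04, while the constitutive Hsp90ab1 was within 2-fold at 2612 and 2032 CPM. Chaperones and folding enzymes of the endoplasmic reticulum behaved differently, with 3 of 15 measured members past 2-fold upward, 1 downward, and a median of 0.30. P4hb and Pdia3, protein disulfide isomerases, were at 283 and 1145 CPM and at 142 and 340.4 CPM, and Hyou1, a large HSP70 relative, had a log2 ratio of 1.38. Pdia4, another isomerase, was lower, at 185 CPM untreated and 28.4 CPM with imatinib. Hyou1 passed the floor in the imatinib library only and Pdia4 in the untreated library only. The whole list of these chaperones summed to 7464 CPM untreated and 9644 CPM with imatinib. Hspa5 and Calr, the lumenal chaperones BiP and calreticulin, were within 2-fold at 0.32 and 0.30. Of 9 MHC class I genes 8 were measured: B2m, the light chain, was at 6862 CPM untreated and 3098 CPM with imatinib and H2-K1, a heavy chain, at 2539.9 CPM untreated and 1041 CPM with imatinib, and these 2 were past 2-fold, while H2-D1 was at -0.73 on the log2 scale and Psmb8, an immunoproteasome subunit, at 0.82. The list's sum was 11396 CPM untreated and 5736 CPM with imatinib. Of 23 interferon genes 4 were measured, and only Ifi47, a GTPase, was past 2-fold, at -1.19. Ifitm1, a membrane protein of this response also found in progenitors, was at 722 CPM untreated and 262 CPM with imatinib.

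Genes of the targeted pathway itself differed little. Of 27 written members 20 were measured, 1 stood above 2-fold and 1 below it, and the median log2 ratio was -0.30. Abl1, the drug's target kinase, was at 109.9 CPM untreated and 70.9 CPM with imatinib, a log2 ratio of -0.63 (-1.18 to -0.11). Bcr was below the floor at 16.3 and 31.9 CPM, and 3' UMIs of either gene do not tell the fusion from the normal transcript. Mapk3, which encodes ERK1, had a log2 ratio of 1.19, and Crk, an adaptor that BCR-ABL phosphorylates, one of -1.01 (-1.84 to -0.26). Crk passed the floor in the untreated library only, and its sign turned, to 0.44, when Kit was required after thinning. Grb2, the adaptor that links BCR-ABL to RAS, was at 0.23 (-0.05 to 0.51), and Ptpn11, the phosphatase SHP2, at 0.06 (-0.51 to 0.60).

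Cell cycle genes were near the background. Of 24 S phase genes 21 were measured and 1 was higher, Lig1, DNA ligase 1, at a log2 ratio of 1.14 (0.67 to 1.61), with a list median of -0.11. Of 25 G2 and M phase genes 22 were measured and 1 was higher, the mitotic kinase Plk1 at 1.19 (0.79 to 1.59), with a list median of 0.29. Per cell the S phase list had a median of 3 UMIs in both libraries, and the G2 and M list 3 untreated and 5 with imatinib. Among cells of 1000 to 3000 UMIs the medians were 0.49 and 0.83. The S phase median was also above 0 under other choices, among them 0.20 with Kit required after thinning, 0.13 with Kit not required and 0.07 without mature-marker cells, so its sign is not settled. None of the 4 measured cyclin and CDK genes passed 2-fold, with Cdk6, the G1 kinase of blood progenitors, at -0.31 (-0.47 to -0.16), nor did the 3 measured CDK inhibitors, with Cdkn1b, p27, at -0.82 (-1.63 to -0.08). Among BCL2 family genes, Bcl2 was at 147 CPM untreated and 42.6 CPM with imatinib and, like Mcl1, at least 2-fold lower, and the proapoptotic Bak1 was higher at a log2 ratio of 1.04 (0.56 to 1.53). Bcl2 and the 3 measured CDK inhibitors passed the floor in the untreated library only.

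Lysosome and ribosomal protein genes leaned higher, and redox genes were split. Of 18 measured lysosomal genes 7 were higher by 2-fold or more and none was lower by as much, and the median log2 ratio was 0.88. Of the 18, 6 passed the floor in the imatinib library only, and the whole list summed to 2647 CPM untreated and 4441 CPM with imatinib. Cd63, a tetraspanin of lysosomes and primary granules, was at 160.4 CPM untreated and 754 CPM with imatinib, and Neu1, sialidase, and Ctsz, cathepsin Z, had log2 ratios of 2.75 and 2.38. Of 21 written antioxidant genes 15 were measured, with 8 above and 7 below a log2 ratio of 0 and a median of 0.12, which was -0.27 when Kit was not required. Past 2-fold, 4 were on the higher and 1 on the lower side. Gstm1, a glutathione transferase, was at 442 CPM untreated and 2349 CPM with imatinib, Prdx5, a peroxiredoxin, at 118 CPM untreated and 530.1 CPM with imatinib, and Gsr, glutathione reductase, at 1.68 on the log2 scale. Prdx3, the mitochondrial peroxiredoxin, was lower, at -1.09. Of 80 written ribosomal protein genes 74 were measured, of which 10 passed 2-fold upward and 2 downward. Their median was 0.44, and they gave a median of 114 UMIs per untreated and 152 per imatinib cell. Rpl9 and Rps18 were furthest apart, at 34.2 and 431 CPM and at 160.4 and 1076 CPM, and counts of such genes are uncertain because of near-identical pseudogenes. Nuclear-encoded respiratory chain genes had a median of 0.51 over 78 measured members, with 10 past 2-fold upward and 1 downward. Transcripts encoded in the mitochondrial genome had a median of -0.35 over 14, with the ribosomal RNA mt-Rnr2 at 4537 and 1628 CPM.

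Receptors and adhesion genes were split. Csf2ra, the GM-CSF receptor alpha chain, and Ifngr1, an interferon gamma receptor chain, were higher with log2 ratios of 1.86 (1.04 to 2.71) and 1.42 (1.12 to 1.72), as was Cxcr4, which holds progenitors in the marrow, at 1.03 (0.50 to 1.56). Tgfbr2, a TGF-beta receptor, and Il2rg, the common gamma chain, were lower at -2.56 (-4.05 to -1.37) and -1.12 (-1.66 to -0.62). The integrin chains Itgam and Itgb2, which form MAC-1 on myeloid cells, were higher at 1.56 (0.96 to 2.17) and 1.43 (0.92 to 1.96), and Itgal, the alpha chain of LFA-1, was lower at -1.83 (-2.54 to -1.18). Csf2ra, Itgam and Itgb2 passed the floor in the imatinib library only and Tgfbr2 and Itgal in the untreated library only, which fixes their direction. The whole receptor list summed to 1147 CPM untreated and 1282 CPM with imatinib, and the adhesion list to 1804 and 1495 CPM. Without cells holding mature markers (825 untreated and 281 with imatinib left), Itgb2 no longer differed, at -0.00076. Vcam1, an adhesion molecule, had 6 UMIs in 6 untreated cells and 45 in 35 imatinib cells, and it too passed the floor in the imatinib library only.

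Genes with the widest ratios outside these lists came from several processes. On the higher side, C3, the central complement component, was at 10.6 CPM untreated and 195 CPM with imatinib and lay in 13 untreated and 81 imatinib cells. Mgst2, a glutathione transferase that makes leukotriene C4, was 15.1-fold higher (8.18 to 30.3). Ltb4r1, the leukotriene B4 receptor of granulocytes, was 12.2-fold higher (6.99 to 22.7), and Cldn15, a claudin, 14.0-fold higher (6.90 to 32.2). On the lower side, Rgs1, a brake on chemokine receptor signalling, was at 804 CPM untreated and 31.9 CPM with imatinib, Serpina3g, a protease inhibitor, at 246 CPM untreated and 17.7 CPM with imatinib and Ctla2a, a cathepsin inhibitor with a close copy in the genome, at 729.6 CPM untreated and 83.3 CPM with imatinib. Pde4b, a cAMP phosphodiesterase, was 11.1-fold lower (5.51 to 26.0) and Nrgn, a calmodulin-binding protein, 16.8-fold lower (7.61 to 46.4). Igkc, the kappa light chain of antibodies, had 1177 UMIs untreated and 0 with imatinib, at least 180.2-fold lower, but 87.5% of the untreated UMIs lay in 10 cells. It also had a UMI in 14.5% of untreated erythroid-marker cells against 8.88% of Kit-positive cells, so its share among Kit-positive cells did not exceed that background. C3, Mgst2, Ltb4r1 and Cldn15 passed the floor in the imatinib library only. Rgs1, Serpina3g, Pde4b, Nrgn and Igkc passed it in the untreated library only. The floor fixes the direction of these genes.

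Choosing the cells in other ways left the leading differences in place. Across the alternatives that do not select on these genes, the log2 ratio of Mpo ranged from 2.70 to 4.16 and that of Elane from 2.61 to 4.76. Fos ranged from -3.98 to -2.62, Zfp36 from -4.40 to -2.75 and Jun from -5.58 to -2.02. In cells of 1000 to 3000 UMIs, the closest match in depth, the primary granule list had a median log2 ratio of 2.83 and the AP-1 list one of -2.73. When at least 2 Kit UMIs were required (690 untreated and 266 imatinib cells), these medians were 2.06 and -2.26, but only 238 genes in all were higher and 559 lower. Without cells holding mature markers the medians were 1.79 and -2.12. B2m, at -0.94, came within 2-fold there, as did Ifngr1, at 0.95, with at least 2 Kit UMIs.

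**Figure D5:**
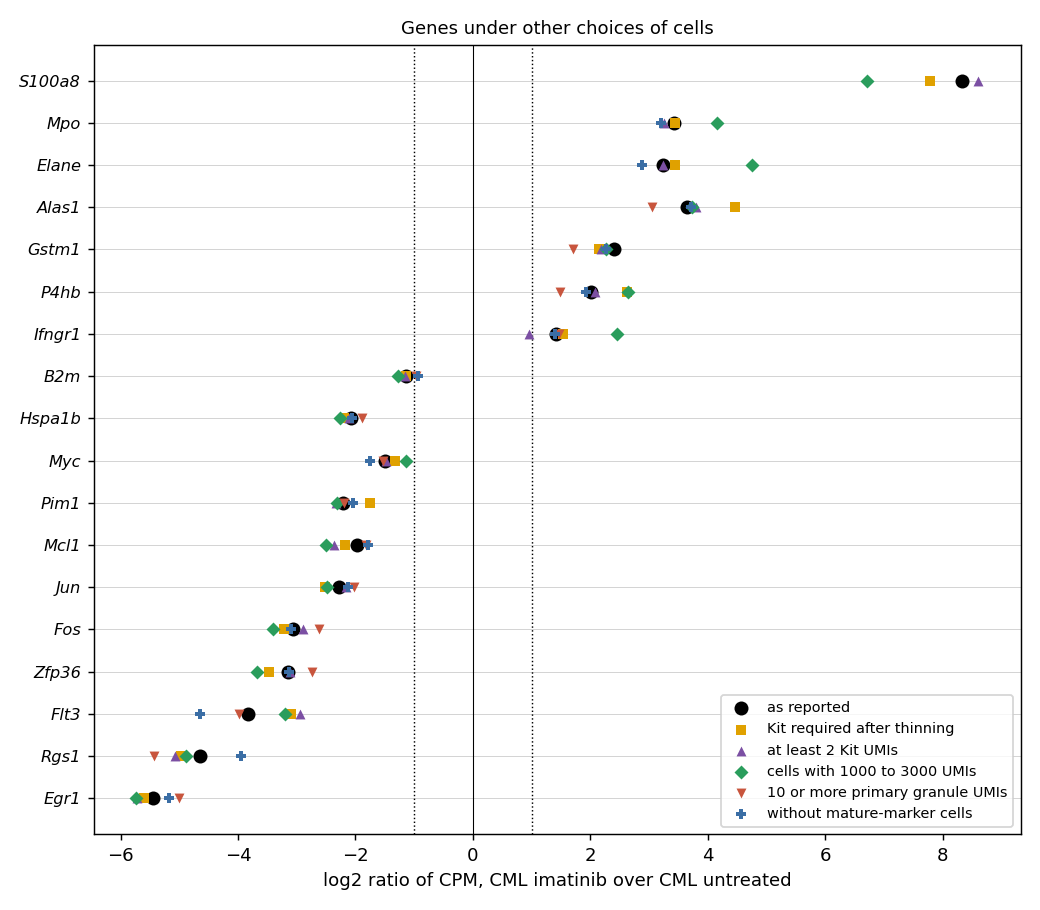
Log2 ratio (imatinib over untreated, horizontal) of 18 genes under 6 choices of cells. The points of Mpo and Elane stay right of the 2-fold line and those of Fos, Jun and Zfp36 stay left of it under each choice drawn.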

How the data were processed

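Per the submitters' processing notes, the tools were Partek 8.0 and Bowtie 1.1.1 and the build GRCm38 (mm10); their roles are not given in the sources used here. The deposited values are a normalized signal with a median sum per cell of 2839.18 in each library. Sums ran from 2835.5 to 2839.18 untreated and from 2788.73 to 2839.19 with imatinib. Each value was divided by the smallest nonzero value of its cell, which gave whole UMIs for 100% of entries (tolerance 0.02). Headers hold 1 name more than value columns, so cells were taken by position. After selection, cells were thinned without replacement to 1000 UMIs (seed 11), summed to 1228000 untreated and 564000 imatinib UMIs, and scaled to CPM. Depth per gene sets the precision: ratios have exact conditional binomial and levels exact Poisson 95% intervals. A gene at 0 was set to 3 counts, 2.44 CPM untreated or 5.32 CPM with imatinib, and its fold is a lower bound. No doublet caller was run; leaving out the deepest 5% of cells was tried.

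Named genes are the 15 highest and 15 lowest with at least 100 CPM and 50 UMIs (without predicted, ribosomal, mitochondrial and sex-linked genes), up to 5 measured members of each of 54 lists by ratio and 3 by level, and defining markers. Genes named beyond this rule were chosen after their values were seen. Some genes are not reported here. Members and lists were chosen with earlier results of these data known. Promoters are RefSeq's and gene positions GENCODE vM21's. The calculation recovered the changed genes of simulated counts, drawn as independent Poisson counts without cell mixture, leaked RNA or library effect. This checks its arithmetic only. Python 3.11.15, numpy 2.4.6 and scipy 1.17.1 were used.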

Additional observations from a re-analysis of the deposited data

How the results depend on the processing

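Against 413 genes at least 2-fold higher and 487 lower, the higher genes numbered 238 with at least 2 Kit UMIs, 227 without cells holding mature markers and 58 (8.99% of 645 measured) in the 24 imatinib and 123 untreated cells with at most 2 granule UMIs. The lower genes numbered 233 in cells of 1000 to 3000 UMIs, 9.48% of 2457 measured, against 473 (19.3%) higher, so higher genes made up 67.0% of those past 2-fold, against 45.9% as reported. They numbered 199 in the granule-poor cells, fewer in number but 30.9% of the 645 measured, against 11.5%. Other floors gave 748 higher and 944 lower (20 CPM), 229 and 251 (100 CPM), and 8421 and 1835 (no floor, where a 0 set to 3 counts can exceed the few UMIs of the other library). A limit of 1.5-fold gave 851 and 1064, one of 4-fold 99 and 88, and a counting interval past 2-fold 190 and 144. The remaining settings, which included TMM and other scaling, other thinning draws and depths, no thinning, Kit required after thinning or not required, a 10% mitochondrial limit and leaving out mast cells, stayed within 1.5 times of both counts. Signs turned for Car2 (0.60 without thinning, 0.78 in granule-poor cells), Gata1 (0.44 without thinning), Crk (0.44 with Kit required after thinning), Hmgb3 (0.68 in granule-poor cells), Itgb2 (-0.00076 without mature markers) and for list medians of erythroid genes (-0.40 to 1.33 without thinning), CDK inhibitors (-0.63 to 0.28 with Kit required after thinning), antioxidants (0.12 to -0.27 with Kit not required) and endoplasmic reticulum chaperones (0.30 to -0.07 without thinning); cytokine receptors (0.61 to -0.0042 without mature markers) and lists with medians nearer 0 turned as well, and the cause was not tested. No paired analysis was possible because each group has 1 library. For the same reason no replicate could be left out. Depth limits the low genes most: the untreated level of S100a8 rests on 7 UMIs, and its log2 ratio ran from 6.71 to 10.13.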

Other observations

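Chromatin, glycolysis and lipid genes were not described above. Of 15 written chromatin regulators 12 were measured, 4 were at least 2-fold lower and none higher, with a median log2 ratio of -0.48. Of the 12, 3 passed the floor in the untreated library only, among them Dnmt3b and Kdm6b, and Tet2 in the imatinib library only. The floor fixes the direction of these genes, and the whole list summed to 4074 CPM untreated and 3245 CPM with imatinib. Dnmt3b, a DNA methyltransferase of early progenitors, had a log2 ratio of -2.08 (-3.26 to -1.09), and Kdm6b, a histone H3 lysine demethylase induced by stress, one of -2.44 (-3.94 to -1.25). Kmt2a, the methyltransferase rearranged in acute leukaemias, was at -1.06 (-1.61 to -0.55), while Dnmt3a and Tet2, often mutated in clonal blood formation, were within 2-fold at -0.25 (-0.89 to 0.37) and 0.43 (-0.23 to 1.07). Of 16 glycolysis genes 11 were measured and 1 passed 2-fold, Gapdh, at 1.02 (0.37 to 1.67). Gapdh passed the floor in the imatinib library only. Scd2, a fatty acid desaturase, was higher at 1.19 (0.96 to 1.43).

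Genes often used to describe leukaemic stem cells of CML were within 2-fold where measured. Of 18 written 8 were measured and none passed 2-fold in either direction, with a median of -0.42. Cd93, a surface marker, was at -0.46 (-0.92 to -0.03), Cd44, the hyaluronan receptor, at -0.60 (-0.91 to -0.30), Foxo3, a quiescence factor, at -0.25 (-0.89 to 0.37), and Ezh2, a Polycomb methyltransferase, at -0.37 (-0.76 to 0.01). The other 10 fell under the floor, and no statement is made on them.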
